A study of Mus musculus with 3 samples.

Results

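Macrophages of the stomach muscle were compared by their content of Hmox1, the transcript of haem oxygenase 1, the inducible enzyme that opens the haem ring. Of 5735 cell barcodes in 3 libraries, 1418 held at least 3000 UMIs (unique molecular identifiers, each marking 1 captured RNA molecule), at most 15% of UMIs from mitochondrial genes and at least 10 UMIs from the complement genes C1qa, C1qb and C1qc together. Both sides of the comparison were chosen by measured values. The Hmox1-high side was every such macrophage with 6 or more Hmox1 UMIs, which gave 485 cells (52, 236 and 197 in replicates 1, 2 and 3). The Hmox1-negative side was every such macrophage with 0, which gave 253 cells (36, 91 and 126). The 680 macrophages with 1 to 5 Hmox1 UMIs stood between the sides. The source tissue was stomach muscle of female C57bl/6 mice without diabetes, from which cells were sorted on CD45, a surface protein of leukocytes, after a warm collagenase digestion. All 3 libraries belong to 1 group, NonDiabetic, and the labels state neither an age nor whether each library had its own animal. The p-values therefore measure how the difference between sides varied over 3 libraries, or 2 where stated, and that spread may be technical. Diabetic samples were not analysed here.

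Haem oxygenase 1 turns haem into biliverdin, carbon monoxide and free iron. Biliverdin reductases then make bilirubin, ferritin stores the iron, and ferroportin (Slc40a1) exports it. The gene is held down by the haem-binding repressor BACH1 and is switched on by NRF2 and by other stress-activated factors, so it is read both as an enzyme of erythrocyte clearance and as a marker of oxidative and heat stress. Macrophages of the gastric muscle lie beside smooth muscle, enteric neurons and interstitial cells of Cajal. Their haem oxygenase 1 has been studied in mouse models of diabetic gastroparesis, and a subset near vessels and nerves carries LYVE1, a receptor for hyaluronan.

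Since the cells were selected on Hmox1, its own level is a description. On the high side it was 1419, 1569 and 1867 CPM (UMIs of the gene per 1000000 UMIs of the sum) in replicates 1, 2 and 3, the order in which library values are given throughout, and on the negative side it was 0 in each. Hmox1 (ENSMUSG00000005413) lies on the plus strand of chr8:75093621-75100589 in GRCm38. The median high cell held 12.5, 12 and 14 Hmox1 UMIs, and the highest held 108. The threshold was crossed without a gap: 68 macrophages had exactly 5 UMIs and 52 had exactly 6, while 253 had 0 and 241 had exactly 1. In the macrophages with 5 UMIs Hmox1 stood at 517 ± 61.9 (mean ± SD over 3 libraries) and in those with 6 at 593 ± 57.0 CPM. The negative side therefore held cells in which no Hmox1 molecule was captured, which does not show that the gene was off.

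The sides were close in depth. Median UMIs per cell were 9931, 9309.5 and 9220 on the high side and 9286.5, 10367 and 8030 on the negative side (two-sided exact test flipping the sign of each library's difference, p = 0.75; the smallest p this design can give is 0.25). The mitochondrial share was 3.03, 3.51 and 3.31% against 3.07, 2.30 and 2.42%. UMIs of ribosomal protein genes made up 9.0, 10.6 and 10.5% of a high cell and 11.5, 16.9 and 14.6% of a negative cell, lower on the high side in 3 of 3 libraries (exact p = 0.25). Cells holding 2 or more UMIs of the mitosis and replication genes Mki67, Top2a, Cenpf, Birc5, Cdk1 and Ube2c were 5.77, 8.90 and 8.63% of the high side and 5.56, 20.9 and 21.4% of the negative side. The part of ribosomal content and cycling cells in the differences below was not tested, except where the values without cycling cells are given. No barcode was shared between libraries among the cells of both sides, and no library was a copy of another (chi-square per degree of freedom from 6.73 to 12.6 between the sums of 1 side).

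Lyve1-positive cells made up more of the high side than of the negative side in each library. To set depth equal, each cell was thinned to 3000 UMIs. The share of cells with a Lyve1 UMI was then 40.4, 69.9 and 64.5% on the high side, a mean of 58.3% ± 15.7 (SD, n = 3), and 13.9, 22.0 and 31.7% on the negative side, a mean of 22.5% ± 8.94. The groups did not overlap. The macrophages between them stood at 43.0% ± 6.13. The mean difference was 35.7 percentage points (exact sign-flip p = 0.25, the smallest possible). Without thinning the shares were 64.8% ± 13.3 and 31.3% ± 6.56. Free RNA in the droplets set a low floor: in a lymphoid gate (C1q sum of at most 2, and at least 5 UMIs of T, NK and ILC2 genes) 5 of 452 thinned cells, 1.11%, held a Lyve1 UMI, at a median depth of 7268 UMIs against 9290 in high and 8803 in negative macrophages. Read from the other direction, 43.8% of all Lyve1-positive macrophages were Hmox1-high and 11% Hmox1-negative, against 22.6% and 26.2% of Lyve1-negative macrophages.

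**Figure D1:**
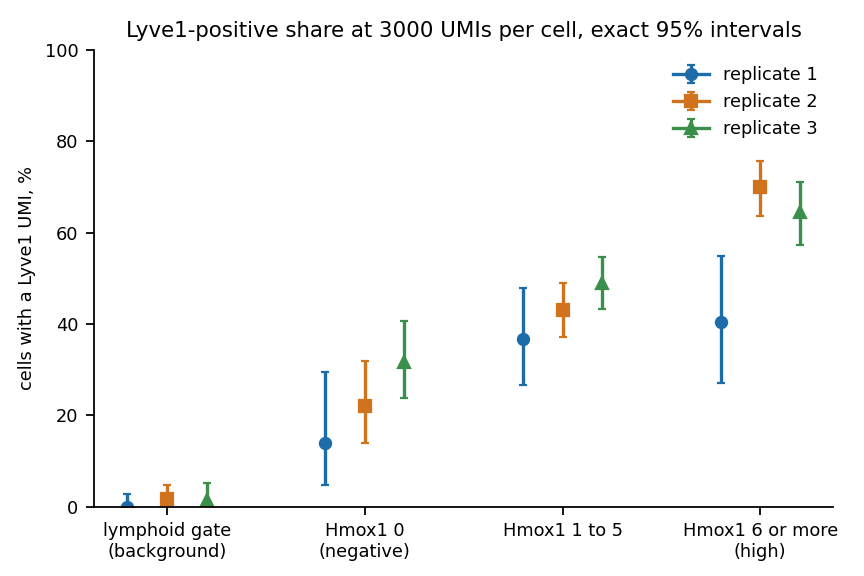
Share of cells with a Lyve1 UMI (vertical axis, %) after thinning to 3000 UMIs per cell, for the lymphoid gate and for macrophages with 0, 1 to 5, and 6 or more Hmox1 UMIs. Each point is 1 library with its exact (Clopper-Pearson) 95% interval, which covers counting error only; the 3 libraries of the high side (40.4 to 69.9%) stand above the 3 of the negative side (13.9 to 31.7%).

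Hmox1-high macrophages carried more transcripts of the pattern receptor Fcna, the lectin Cd209g, the metallothionein Mt2 and the small heat shock protein Hspb1, and fewer of the topoisomerase Top2a and the replication histone Hist1h4d. UMIs were summed per library and side and tested with edgeR, with each library as a block. Of 7781 genes tested, 174 (2.24%) rose and 60 (0.771%) fell at an adjusted p under 0.05. Among the called genes with at least 50 CPM on 1 side and the same sign in every library and Lyve1 stratum where tested, the 12 largest increases were those of Rnase2a (3.96 ± 0.29, log2 fold change ± SE), an eosinophil-type ribonuclease, Cd209b (3.74 ± 0.42), Cd209f (3.69 ± 0.35) and Cd209g (3.44 ± 0.29), C-type lectins of the SIGN family, Fcna (3.32 ± 0.32), a secreted pattern receptor, Ednrb (3.13 ± 0.42), the endothelin B receptor, Mt2 (2.54 ± 0.28), Lyve1 (2.34 ± 0.23), Rcn3 (2.30 ± 0.29), a calcium-binding protein of the endoplasmic reticulum, Hbegf (2.28 ± 0.37), Ankrd33b (2.26 ± 0.37) and Hspb1 (2.22 ± 0.36). Of these, Cd209b, Cd209f, Cd209g, Fcna and Ednrb were too low to be tested in Lyve1-negative cells, and Lyve1 was tested in neither stratum. Members of the Cd209 family are similar in sequence, and the handling of reads that fit several genes is not stated, so their split is uncertain.

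The Fcna level was 216, 476 and 667 CPM on the high side and 24.5, 20.1 and 119 on the negative side, with every high library above every negative one (adjusted p = 0.000812). Over all 7781 genes tested, 576 had every high library above every negative one and 568 had every high library below. Fcna lies on the minus strand of chr2:25624666-25628030. Rnase2a differed widely between libraries: it was 317, 55.8 and 15.2 against 21.8, 3.01 and 0.898, so that replicate 1 was highest on both sides and the sides overlapped, while each library was higher on the high side (adjusted p = 0.000266). Over the 12 increases, leaving out 1 library ended the call without replicate 2 for Hbegf (1.63) and Ankrd33b (2.95) and without replicate 3 for Hbegf (2.12), Ankrd33b (1.63) and Hspb1 (1.62), with the log2 fold change then found in parentheses. With Lyve1 status in the block, 11 of the 12 were tested (Lyve1 was left out) and Ednrb (1.90), Rcn3 (1.5), Hbegf (1.69) and Ankrd33b (1.65) were no longer called. Without cells holding markers of other classes, Rnase2a (2.11), Rcn3 (1.78) and Hbegf (1.58) were no longer called. Without the block, Cd209g alone of the 12 was called. The count of called genes depended on the libraries and on the block: it was 781 without replicate 1, 43 without replicate 2, 63 without replicate 3 and 10 without the block, against 234 in all.

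**Figure D2:**
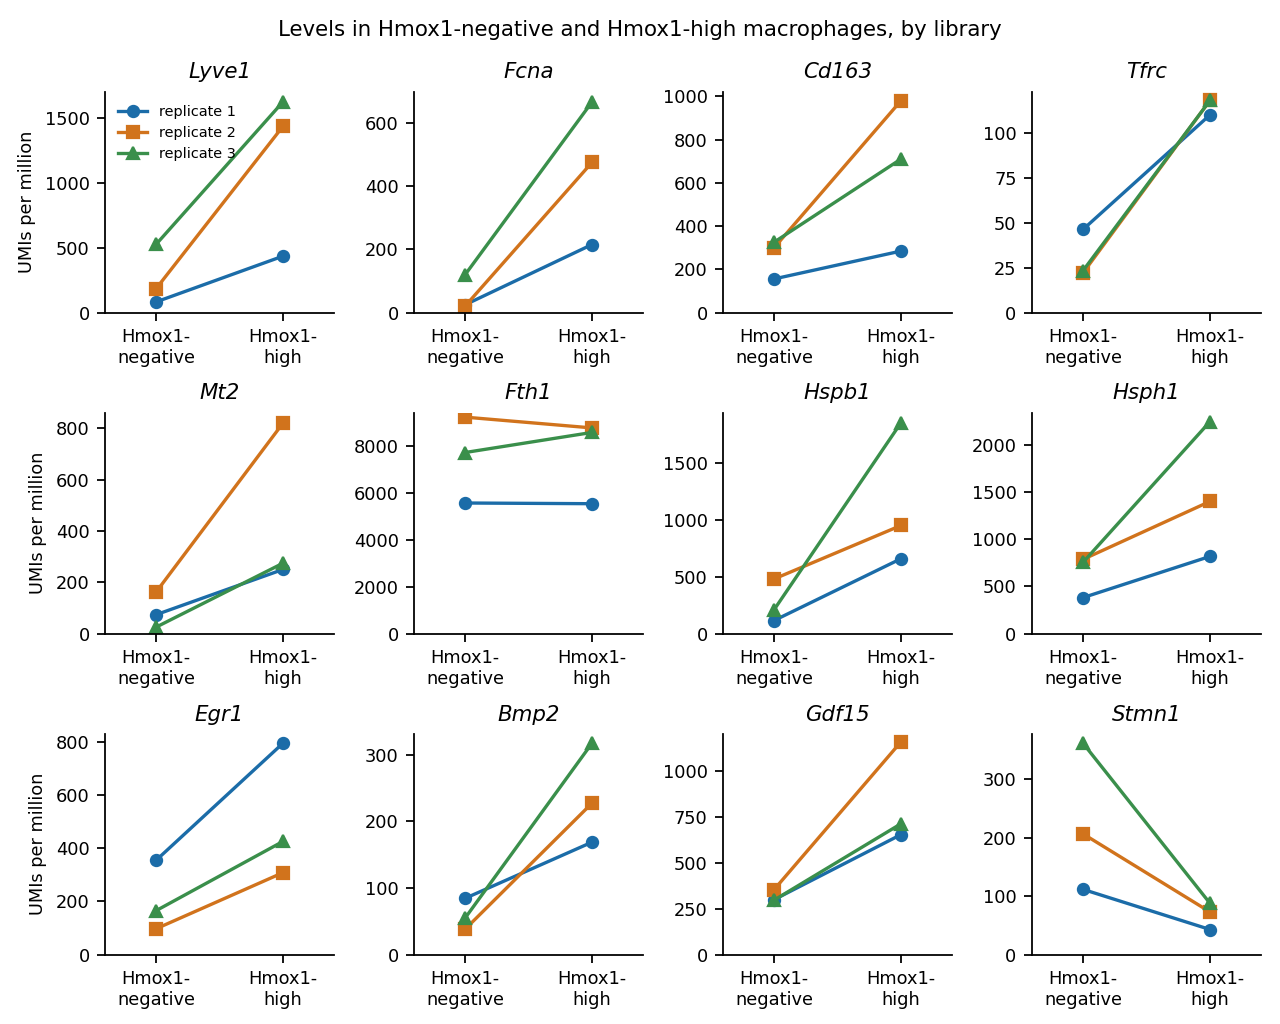
Levels of 12 genes in CPM (vertical axes, each from 0) in Hmox1-negative and Hmox1-high macrophages, 1 line per library. In 11 of the panels all 3 lines rise or, for Stmn1, fall, while Fth1 stays between 5539.7 and 9231 with no common direction.

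Genes known from LYVE1-positive resident macrophages were higher on the Hmox1-high side. Of 26 such genes 25 were tested, 18 rose and none fell, while 2.24% of all genes rose. Their median log2 fold change was 1.30, against -0.00103 over all genes tested. Lyve1 stood at 434, 1435 and 1623 against 81.8, 184 and 525 CPM (2.34 ± 0.23, adjusted p = 0.000812; minus strand of chr7:110850607-110863239). Each library was higher on the high side, but replicate 1 on the high side lay below replicate 3 on the negative side, so the groups overlapped. Folr2, a folate receptor, was 150.0, 563 and 552 against 30, 100.4 and 217 (2.00 ± 0.23, adjusted p = 0.00153), and F13a1, the A subunit of clotting factor XIII, 1110.3, 2068 and 1764 against 415, 461 and 750.2 (1.64 ± 0.19, adjusted p = 0.00156). The F13a1 values did not overlap between sides, and those of Folr2 did. Timd4, a phosphatidylserine receptor of long-lived macrophages, rose by 2.13 ± 0.31, and Mrc1, the mannose receptor, by 0.77 ± 0.16. In these sums, this group cannot be separated from the larger Lyve1-positive share of the high side. The same comparison at fixed Lyve1 status follows. Among the 18, the call ended without replicate 2 for Mrc1 (0.57), Cd163 (1.04), Igf1 (0.98), Cd209d (1.71), Gas6 (0.75), Timd4 (1.61) and Ltc4s (0.76) and without replicate 3 for Mrc1 (0.81), Ccl24 (1.08), Cd209d (1.57), Gas6 (1.36) and Ltc4s (1.32).

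Few genes of haem and iron handling passed the test, though most had a positive log2 fold change. Of 22 tested, 3 rose and none fell, with a median of 0.40, while 2.24% of all genes rose. By edgeR 9 of the 22 had an unadjusted p under 0.05. Positive values were found for 19 of the 22, against 3880 of 7781 over all genes tested. Tfrc, the transferrin receptor through which cells take up iron, was 110.3, 118 and 118 on the high side and 46.4, 22.1 and 23.4 on the negative side (2.12 ± 0.24, adjusted p = 0.00156; plus strand of chr16:32608920-32632794). The 3 high libraries were close to each other and all above the negative ones. Cd163, the receptor for haemoglobin bound to haptoglobin, was 284, 980.2 and 710.3 against 155, 299 and 325 (1.30 ± 0.19, adjusted p = 0.00485; plus strand of chr6:124304656-124330527), higher in each library with overlapping groups. Cp, the copper ferroxidase ceruloplasmin, was 63.8, 106 and 121 against 35.5, 32.1 and 60.2 (1.28 ± 0.21, adjusted p = 0.00919). The call ended without replicate 2 for Cd163 (1.04) and Cp (0.98) and without replicate 3 for Cp (1.4).

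The enzymes and carriers that act directly after haem oxygenase did not pass the test. Fth1, the heavy chain of ferritin, was 5539.7, 8771 and 8579 on the high side and 5569, 9231 and 7722 on the negative side (0.05 ± 0.15, adjusted p = 0.892), and Ftl1, the light chain, 3048, 5361 and 5358 against 2948, 5430.1 and 5632 (0.01 ± 0.14, adjusted p = 0.978). Both were abundant in these cells, the sides overlapped for both, and replicate 1 was the lowest library on each side. A p that misses the threshold does not show equal levels. The errors, derived from the test statistic, give only a rough size of a difference that could be missed. Biliverdin reductase A (Blvra) differed by 0.11 ± 0.21 and biliverdin reductase B (Blvrb) by 0.45 ± 0.19 with adjusted p of 0.889 and 0.217. Slc40a1, the iron exporter ferroportin, was 25.9, 28.3 and 44.7 against 2.73, 3.01 and 62.9, higher in 2 of 3 libraries (0.72 ± 0.50, adjusted p = 0.499); without replicate 3 it passed the test at 3.16. Hmox2, the constitutive haem oxygenase, differed by -0.10 ± 0.19 (adjusted p = 0.833).

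Of 17 tested regulators of Hmox1, 4 rose and none fell, with a median of 0.61, while 2.24% of all genes rose. Bach1, the haem-sensitive repressor of the gene, was 303, 571 and 327 against 199, 310.3 and 161 (0.88 ± 0.17, adjusted p = 0.0213), higher on the high side in each library. Jun, a subunit of the AP-1 factor, was 2205, 1632 and 3057 against 1304, 784 and 1592 (0.95 ± 0.15, adjusted p = 0.0084), Jund rose by 0.74 ± 0.17 and Atf4, the factor of the amino acid stress response, by 0.73 ± 0.17 (adjusted p = 0.0475). Nfe2l2, which encodes NRF2, was 755, 879 and 644 against 589, 810.4 and 338, higher in 3 of 3 libraries without passing the test (0.49 ± 0.20, adjusted p = 0.202). Spic, the factor of haem-laden red pulp macrophages, was 1.72, 33.1 and 16.8 against 10.9, 3.01 and 8.98 (1.54 ± 0.59, adjusted p = 0.192). Significance was lost without replicate 1 for Jund (0.72); without replicate 2 for Bach1 (0.86) and Atf4 (0.65) and without replicate 3 for Bach1 (0.74), Atf4 (0.61), Jun (0.90) and Jund (0.58).

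Among 27 listed NRF2 targets and antioxidant genes, 22 were tested, 1 rose and none fell, which is near the 2.24% of all genes that rose, and their median was 0.17. The 1 called gene was Srxn1, sulfiredoxin, which restores oxidised peroxiredoxins, at 12.1, 125 and 45.2 against 10.9, 29.1 and 18.0 (1.66 ± 0.28, adjusted p = 0.011); the rise was small in replicate 1, and the call ended without replicate 2 for Srxn1 (1.13) and without replicate 3 for Srxn1 (1.78). Gclm, the modifier subunit of glutathione synthesis, was 20.7, 34.4 and 33.0 against 16.4, 27.1 and 24.3 (0.42 ± 0.24, adjusted p = 0.402), and the peroxiredoxin Prdx1 412, 934 and 573 against 472, 504 and 500.4 (0.34 ± 0.20, adjusted p = 0.397). Slc7a11, the cystine importer, had the lowest value of the list, -0.54 ± 0.63 (adjusted p = 0.704). Nqo1, a reductase often read as an NRF2 target, was too low to be tested.

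Both metallothioneins rose, while no other gene of zinc handling did (2 of 9 tested, median 0.28). Of all genes tested 2.24% rose. Metallothioneins bind zinc and copper and are induced by metals, glucocorticoids and oxidants. Mt2 was 250.0, 820.1 and 274 on the high side and 73.6, 162 and 25.2 on the negative side (2.54 ± 0.28, adjusted p = 0.00153), and the groups did not overlap. Mt1 was 776, 2422 and 1052 against 360.0, 1196 and 498 (1.09 ± 0.15, adjusted p = 0.0039), higher in 3 of 3 libraries with overlapping sides, and its call ended without replicate 3 (1.05). Replicate 2 was the highest on both sides for both genes.

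The 2 genes are neighbours on chromosome 8, at chr8:94172664-94173568 for Mt2 and chr8:94179082-94180327 for Mt1, both on the plus strand. Stretches before their starts are shown because the pair moved together and holds the metal response element on which both are known to depend. They are read 5′ to 3′ on the plus strand from RefSeq promoter windows (GRCm38.p6; each window runs from 250 bases before to 50 after the start), with metal response elements (TGCACNC or TGCGCNC) and the antioxidant response element core (TGACNNNGC) in capitals, searched on both strands.
Mt1, chr8:94178939-94179078: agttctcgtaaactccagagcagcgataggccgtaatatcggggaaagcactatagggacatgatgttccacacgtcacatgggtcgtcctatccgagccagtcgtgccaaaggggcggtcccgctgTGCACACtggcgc
Mt2, chr8:94172468-94172607: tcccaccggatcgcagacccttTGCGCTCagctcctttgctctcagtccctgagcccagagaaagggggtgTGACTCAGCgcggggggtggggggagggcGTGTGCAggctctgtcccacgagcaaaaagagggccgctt
The printed stretch of Mt1 holds 1 metal response element and that of Mt2 holds 2, with 1 antioxidant core. Their whole windows hold 3 and 4 metal elements. Over all 32851 promoter windows 25.7% hold a metal response element and 12.4% an antioxidant core. Among 23 NRF2 and antioxidant genes with a window, 10 (43.5%) held the antioxidant core in at least 1 window, against 14% of all genes and 5 of 22 (22.7%) haem and iron genes. Srxn1 was among the 10. A match is a run of letters, not a measured site.

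Heat shock genes were mostly higher on the Hmox1-high side. By edgeR 4 of 16 passed the test and 15 had an unadjusted p under 0.05. All 16 tested had a positive log2 fold change, from 0.50 for Hspa5, the chaperone of the endoplasmic reticulum, to 2.22 for Hspb1; 4 passed the test and none fell, with a median of 0.75. Over all genes tested 3880 of 7781 were positive and 2.24% rose. Hspb1, a small chaperone of the cytoplasm, was 657, 948 and 1849 against 115, 479 and 208 (2.22 ± 0.36, adjusted p = 0.00934; plus strand of chr5:135887919-135889563). Hsph1, a nucleotide exchange factor of the HSP70 machine, was 819, 1402 and 2249 against 382, 787 and 756 (1.20 ± 0.19, adjusted p = 0.00822; minus strand of chr5:149614287-149636376). Hspd1, the mitochondrial chaperonin, was 553, 742 and 1411 against 205, 459 and 465 (1.26 ± 0.21, adjusted p = 0.0102). For each of these 3 genes the 3 high libraries lay above the 3 negative ones. The inducible HSP70 genes Hspa1a and Hspa1b, near-identical copies whose reads may have been split, were among the most abundant transcripts: Hspa1a was 5281, 6596 and 10729 against 3747, 4304 and 5599.7 (0.71 ± 0.16, adjusted p = 0.0418) and Hspa1b 5498, 7961 and 12825 against 4999, 4335 and 5419 (0.78 ± 0.21, adjusted p = 0.0737). Replicate 3 was the highest on the high side for all 5. Adjusted p rose to the threshold or above without replicate 2 for Hspa1a (0.74) and without replicate 3 for Hspb1 (1.62), Hspd1 (1.01), Hsph1 (0.95) and Hspa1a (0.54).

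Hspd1 and its partner Hspe1, the chaperonin cap, lie head to head on chromosome 1 (chr1:55077835-55088243 on the minus strand and chr1:55088132-55091307 on the plus strand), and their RefSeq windows share 285 of 300 bases. The shared stretch is shown because it holds repeated heat shock units. Capitals mark heat shock elements of 3 units, searched on both strands: GAA and TTC in alternation with 2 free bases between units, a pattern chosen after the values were seen. Its 2 matches overlap here in 1 run.
Hspe1, chr1:55087998-55088127: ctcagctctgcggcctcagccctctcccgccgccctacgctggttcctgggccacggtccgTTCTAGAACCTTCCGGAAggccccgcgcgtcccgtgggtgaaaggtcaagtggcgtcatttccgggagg
Of 13 heat shock genes with a window, 4 held such a run, Chordc1, Hspd1, Hspe1 and Hsph1, against 0.662% of all genes. Hspd1 and Hspe1 share the same run. The windows of Hspb1, Hspa1a and Hspa1b held none, although Hspb1 and Hspa1a passed the test over all cells. Chordc1 held a run and was not called. Hspe1 was 489.7, 924 and 1337 against 270.0, 734 and 564 CPM and missed the threshold over all cells (0.84 ± 0.21, adjusted p = 0.0555).

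Immediate early genes, which respond to stimuli without new protein synthesis, also had mostly positive values. Of 24 tested 22 were positive, 9 rose and none fell, with a median of 0.66, while 2.24% of all genes rose. Egr1, a zinc finger factor, was 795, 308 and 426 against 355, 97.4 and 165 (1.42 ± 0.17, adjusted p = 0.0017), with replicate 1 highest on both sides. Rhob, a small GTPase, rose by 1.31 ± 0.16, Klf2 by 1.16 ± 0.17 and Zfp36, which degrades cytokine transcripts, by 1.03 ± 0.17. The lowest value was that of Ier2, -0.18, which was not called. Sorting and warm digestion preceded every library, and their part in the levels of heat shock and immediate early genes was not tested. Calls were lost without replicate 1 for Jund (0.72); without replicate 2 for Klf4 (0.75), Zfp36 (0.98), Egr2 (1.00), Klf2 (0.96) and Junb (0.75) and without replicate 3 for Klf4 (1.05), Jun (0.90), Zfp36 (0.85), Egr2 (0.78), Jund (0.58) and Junb (0.53).

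Among 15 tested growth factors and trophic signals, 5 rose and none fell, with a median of 0.66, while 2.24% of all genes rose. Bmp2, which muscle macrophages are known to supply to enteric neurons, was 169, 228 and 318 on the high side and 84.5, 38.2 and 54.8 on the negative side (2.17 ± 0.28, adjusted p = 0.0027), with no overlap. Gdf15, a stress-induced cytokine of the TGF-beta family, was 655, 1161 and 714 against 300.0, 355 and 297 (1.41 ± 0.17, adjusted p = 0.0017), also without overlap. Igf1, insulin-like growth factor 1, rose by 1.12 ± 0.17, Pdgfc by 1.59 ± 0.32 and Hbegf, a ligand of the EGF receptor, by 2.28 ± 0.37. Hbegf was 50.0, 329 and 125 against 43.6, 41.2 and 23.4, so that replicate 1 showed little difference. In this group calls ended without replicate 2 for Bmp2 (1.91), Igf1 (0.98), Pdgfc (0.99) and Hbegf (1.63) and without replicate 3 for Hbegf (2.12).

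Of 18 tested chemokines 5 rose (Ccl2, Ccl6, Ccl7, Ccl8 and Ccl24) and 1 fell (Ccl5), while 2.24% of all genes rose and 0.771% fell. Ccl8, a ligand of CCR8 made by resident macrophages, was 74.1, 455 and 855 against 24.5, 48.2 and 179.7 (2.58 ± 0.25, adjusted p = 0.000812), and Ccl7, a monocyte attractant, 1297, 5997 and 2235 against 952, 2062 and 523 (1.4 ± 0.27, adjusted p = 0.0213). Ccl5, a T cell attractant, was 17.2, 118 and 45.7 against 120.0, 694 and 55.7 (-1.80 ± 0.41, adjusted p = 0.0432), a fall of very different size in replicates 2 and 3. Of 22 genes of interleukin 10 and alternative activation, 2 rose. Il10, an anti-inflammatory cytokine, was 619, 774 and 379 against 284, 225 and 147 (1.46 ± 0.17, adjusted p = 0.0017) and Retnla, a secreted product of alternatively activated macrophages, 6697, 6279 and 5657 against 3142, 619.6 and 1821 (2.03 ± 0.34, adjusted p = 0.00986). Neither overlapped between sides. Of 17 inflammatory cytokine genes 1 rose, Osm, oncostatin M (1.04 ± 0.24). For a list of this size 1 call is near the overall share. Il1b, interleukin 1 beta, was 400.0, 698 and 597 against 1536, 3294 and 617 and missed the threshold (-1.40 ± 0.37, adjusted p = 0.068). The test was no longer passed without replicate 2 for Ccl2 (1.39), Ccl7 (1.31), Ccl6 (1.09), Ccl5 (-1.14) and Osm (1.42) and without replicate 3 for Ccl24 (1.08), Ccl2 (0.90), Ccl7 (1.00), Ccl6 (1.11), Retnla (2.20) and Osm (0.68).

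Several genes of cell division were lower in Hmox1-high cells. Of 11 tested proliferation genes 5 fell and none rose, with a median of -0.64, while 0.771% of all genes fell. Top2a, the DNA topoisomerase of dividing cells, was 6.90, 20.2 and 29.5 against 19.1, 126 and 199 (-2.58 ± 0.22, adjusted p = 0.000406), and Stmn1, which regulates microtubules, 43.1, 73.2 and 87.9 against 112, 207 and 362 (-1.66 ± 0.18, adjusted p = 0.00153). Mki67 was 19.0, 38.8 and 37.6 against 16.4, 135 and 172 (-1.75 ± 0.27, adjusted p = 0.00755), lower in replicates 2 and 3 and not in replicate 1. These 2 libraries also held most cycling cells of the negative side (19 of 91 and 27 of 126 cells, against 2 of 36 in replicate 1). The replication histones Hist1h2ae (-3.78 ± 0.38) and Hist1h4d (-2.66 ± 0.31) fell as well. Among the 5 proliferation genes, calls ended without replicate 2 for Mki67 (-1.67) and Hmgb2 (-0.95) and without replicate 3 for Mki67 (-1.43) and Hmgb2 (-0.78), while Cdk1 was then too low to be tested. Without cycling cells, an alternative added after seeing the data, 222 genes were called in place of 234, of the 12 lower genes named here 9 were still tested and 8 called, and Stmn1 was no longer called (-0.55).

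The other 8 of the 12 lower genes were Thbs1 (-2.19 ± 0.47), thrombospondin 1, Nes (-1.90 ± 0.23), nestin, Ccl5, Atp2b4 (-1.70 ± 0.34), a calcium pump of the plasma membrane, Glipr1 (-1.63 ± 0.20), Mmp12 (-1.57 ± 0.18), the macrophage elastase, Plp2 (-1.51 ± 0.19) and Syt11 (-1.41 ± 0.27), a regulator of vesicle traffic. Nes was 36.2, 13.3 and 12.7 against 166, 49.2 and 41.3 (adjusted p = 0.0017) and Glipr1 48.3, 33.5 and 24.4 against 136, 127 and 66.5 (adjusted p = 0.00185), both without overlap. Mmp12 was highest in replicate 1 on both sides, at 205, 25.5 and 27.9 against 676, 63.3 and 92.5 (adjusted p = 0.00153). Among the 12 lower genes, the call ended without replicate 2 for Thbs1 (-3.09), Ccl5 (-1.14), Atp2b4 (-1.13), Glipr1 (-1.44), Plp2 (-1.45) and Syt11 (-1.15) and without replicate 3 for Hist1h4d (-2.11), Thbs1 (-2.43) and Syt11 (-1.41), where 11 were tested. With Lyve1 status in the block 5 of the 12 were called, and Nes (-1.10), Mmp12 (-0.72) and Plp2 (-0.98) as well as Thbs1, Ccl5, Atp2b4 and Syt11 were not. Without cells holding markers of other classes 9 were tested, and Mmp12 (-1.45), Plp2 (-1.45) and Syt11 were not called. Without the block, Plp2 alone of the 12 was called.

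MHC class II genes, which present antigen to T cells, did not pass the test over all cells: of 10 tested none rose or fell, with a median of -0.59, and 9 had a negative value. Of all genes tested 0.771% fell. By edgeR 6 had an unadjusted p under 0.05, and DESeq2 called 0. H2-Eb1 was 5312, 2365 and 3195 against 5460.3, 6200.4 and 5972 (-0.75 ± 0.23, adjusted p = 0.112). Replicate 1 was level between sides, while replicates 2 and 3 were lower on the high side. The count of 0 depended on that library and on the definition of the sides. Without replicate 1, 7 of 12 MHC class II genes fell (median -0.93), among them H2-Eb1 at -1.12 and H2-Ab1 at -1.02. Over all genes 260 of 8676 fell then. Sides were also set at equal depth, by 2 or more Hmox1 UMIs against 0 after each cell was thinned to 3000 UMIs. There 5 of 12 fell, against 288 of all 9456 genes tested.

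The comparison was repeated at fixed Lyve1 status. Among Lyve1-positive cells (340 high and 85 negative) only replicates 2 and 3 had 10 or more cells on each side, so 2 libraries were compared. The p-values of this stratum rest on those 2 libraries. Of 7457 genes tested, 204 (2.74%) rose and 58 (0.778%) fell. Among Lyve1-negative cells (145 high and 168 negative, 3 libraries), 15 of 6473 genes (0.232%) rose and 9 (0.139%) fell. Lyve1 status in the first stratum did not set the Lyve1 level equal: it was 1993 and 2448 CPM on the high side and 777 and 1426 on the negative side in replicates 2 and 3, and 26 of the 85 negative cells held exactly 1 Lyve1 UMI, against 14 of the 340 high cells. With at least 5 Lyve1 UMIs required, and also without cycling cells, both added after seeing the data, none of the Lyve1-positive calls was left (541 and 847 genes at an unadjusted p under 0.05, edgeR). Under the original definition, with those cells kept, DESeq2 called 46 genes in place of 262.

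Of 16 tested heat shock genes, 11 rose in Lyve1-positive and 8 in Lyve1-negative cells by edgeR, while DESeq2 called 4 in each. All 16 were positive in both strata, with medians of 0.91 and 0.85. By edgeR 2.74% of all genes rose in Lyve1-positive and 0.232% in Lyve1-negative cells. With sides set at equal depth, 1 of 16 rose in Lyve1-positive cells (median 0.57), against 47 of all 7588 genes tested. In Lyve1-negative cells 8 of 16 rose then, against 17 of 6593. This setting changed the cells on each side. Replicate 1 entered in Lyve1-positive cells, whose negative side held 24, 69 and 118 cells in place of 9, 28 and 48. Among Lyve1-negative cells Hspb1 was 686, 843 and 1326 against 124, 546 and 88.1 (2.31 ± 0.45, adjusted p = 0.0412) and Hspa1a 5758, 8376 and 12438 against 3979, 4589 and 5499 (0.92 ± 0.13, adjusted p = 0.005), both without overlap. Of all 6473 genes tested in Lyve1-negative cells, 212 had every high library above every negative one and 341 had every one below. Hspe1 rose there by 1.26 ± 0.18 and Dnaja1, a co-chaperone of HSP70, by 1.04 ± 0.17. Among Lyve1-positive cells Hspb1 was 989 and 2115 in replicates 2 and 3 of the high side against 263 and 415 (2.24 ± 0.21, adjusted p = 4.1e-05), and Bag3, a co-chaperone of damaged proteins, 406 and 729.7 against 102 and 193 (2.05 ± 0.21, adjusted p = 8.42e-05). In the Lyve1-negative stratum no gene was called without replicate 2 (317 at an unadjusted p under 0.05, edgeR), 97 without replicate 1 and 73 without replicate 3.

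Of 6277 genes tested in both strata, which share no cell, 178 rose in Lyve1-positive and 15 in Lyve1-negative cells by edgeR. Higher in both were 9, 5.06% of the first set and 60% of the second. They were Bmp2, Egr1, Hspa1a, Hspa1b, Hspa8, Hspb1, Hspd1, Hsph1 and Zfp36. DESeq2 called 4 heat shock genes in each stratum, and 0 trophic genes, thus not Bmp2, in Lyve1-negative cells. The overlap was empty without replicate 2, where Lyve1-negative cells had no call. It was also empty without cycling cells, where Lyve1-positive cells had none. Bmp2 was 108, 126 and 107 against 71.2, 31.6 and 22.7 in Lyve1-negative cells (1.71 ± 0.30, adjusted p = 0.0185) and 267 and 425 against 59.5 and 109.8 in Lyve1-positive cells of replicates 2 and 3 (2.13 ± 0.23, adjusted p = 8.42e-05). Egr1 rose by 1.38 ± 0.19 and 1.33 ± 0.21. Lower in both were Hist1h4d, Knl1, a kinetochore protein, and Top2a, which are 5.77% of the 52 genes that fell in Lyve1-positive cells and 42.9% of the 7 in Lyve1-negative cells.

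Some haem and antioxidant genes rose in Lyve1-positive cells by edgeR. There Tfrc was 158 and 156 against 25.5 and 46.4 (2.16 ± 0.30, adjusted p = 0.000778), Cd163 1271 and 956 against 752 and 635 (0.77 ± 0.18, adjusted p = 0.029) and Slc11a2, an iron transporter, rose by 1.46 ± 0.33; these were 3 of 22 tested. Among 21 NRF2 and antioxidant genes Srxn1 (2.51 ± 0.40), Prdx1 (0.92 ± 0.23) and Sqstm1 (0.95 ± 0.21), an autophagy receptor, rose. DESeq2 called 1 haem and iron gene and 0 NRF2 and antioxidant genes in these cells. In Lyve1-negative cells 0 of 19 haem and iron genes and 0 of 22 NRF2 and antioxidant genes were called by edgeR (0 and 1 at an unadjusted p under 0.05), and none by DESeq2. With 0.232% of all genes higher there, against 2.74% in Lyve1-positive cells, a count of 0 in lists of this size is near the overall share and is no result about these genes. In Lyve1-negative cells Tfrc stood at 24.9, 17.3 and 43.7 against 33.7, 21.0 and 9.95 and Srxn1 at 8.30, 41.9 and 24.1 against 7.49, 32.9 and 18.5. Fth1 was not called in either (0.22 ± 0.16 and 0.17 ± 0.12). Mt2 rose by 2.53 ± 0.27 in Lyve1-positive cells and stood at 1.05 ± 0.26 (adjusted p = 0.119) in Lyve1-negative cells, higher in 3 of 3 libraries. The genes of the Lyve1 resident group had medians of 0.72 (11 of 24 rose) and -0.15 (0 of 17 called), and MHC class II genes -0.80 (5 of 10 fell, among them H2-Eb1 at -1.19 ± 0.19) and 0.04 (0 of 11 called). The medians of the resident group are over different genes. Fcna, Ednrb, Timd4, Vsig4, Cd209d, Cd209f and Cd209g were too low to be tested in Lyve1-negative cells. At an unadjusted p under 0.05 in Lyve1-negative cells there were 2 of the 17 resident genes and 0 of the 11 MHC class II genes by edgeR, and DESeq2 called none of either. In Lyve1-positive cells DESeq2 called 6 resident genes higher and 1 MHC class II gene lower.

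Whether the step from Hmox1-negative to Hmox1-high differed between Lyve1-positive and Lyve1-negative cells was tested gene by gene in 1 edgeR fit. Of 7685 genes, 0 (0%) were called in either direction; 512 had an unadjusted p under 0.05, and DESeq2 also called 0 (142 unadjusted). The smallest adjusted p, 0.0688, belonged to Gdf15 and Emp1. Without replicate 2 or 3 the Lyve1-positive cells of this fit came from 1 library, so counts from those fits cannot decide whether the step differed. With 0 genes called, the calls that stand in 1 stratum alone are not shown to be particular to it. With Lyve1 status added to the block over all cells, 61 genes were called. Then 9 of 16 heat shock genes and 3 of 24 genes of the Lyve1 resident group rose, against 43 of all 7685 genes tested.

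**Figure D3:**
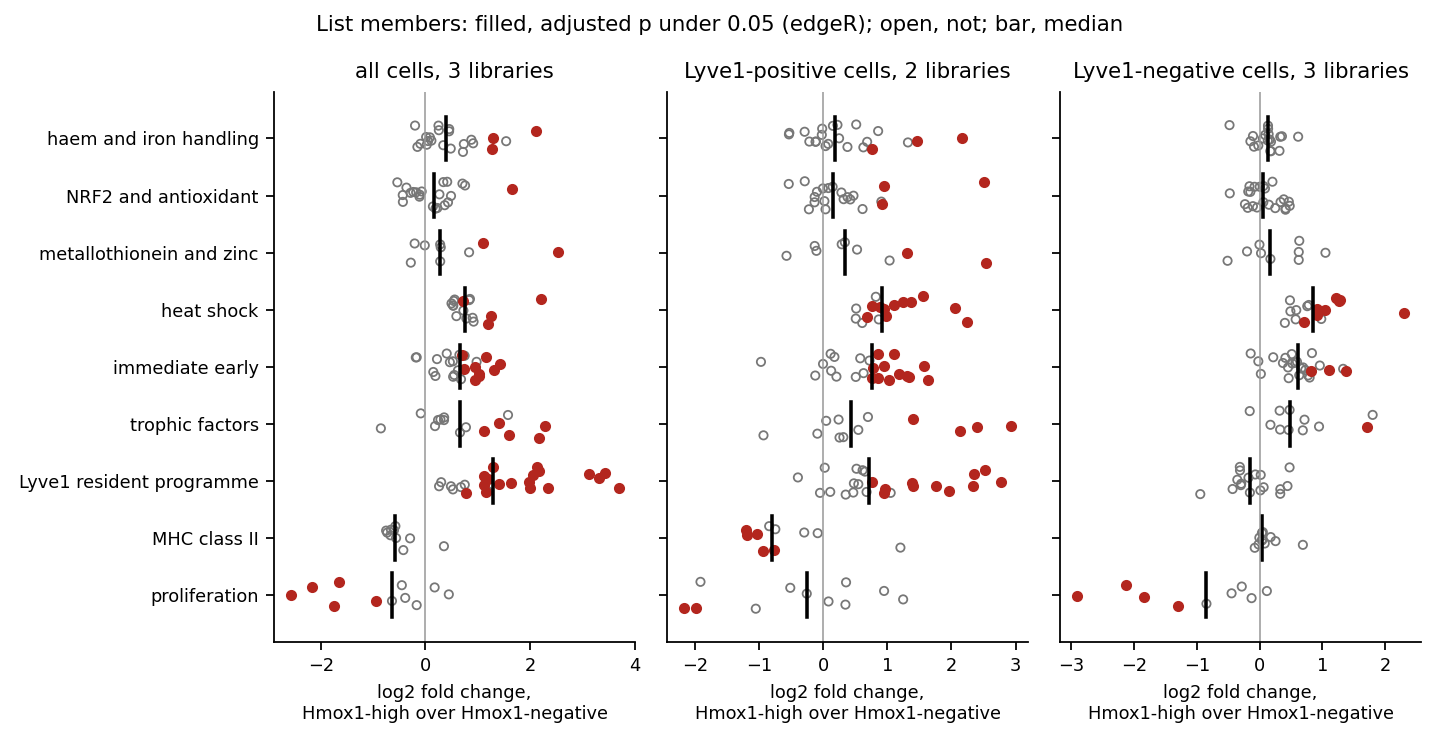
Log2 fold change, Hmox1-high over Hmox1-negative (horizontal axes), of the tested members of 9 gene lists in all cells, Lyve1-positive cells and Lyve1-negative cells. Each point is 1 gene, filled where its adjusted p is under 0.05, and each bar is the list's median. Heat shock genes lie right of 0 in all 3 panels (medians 0.75, 0.91 and 0.85). The Lyve1 resident group has medians of 1.30, 0.72 and -0.15 over 25, 24 and 17 tested genes, so its panels do not hold the same genes.

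Levels along the Hmox1 count show how the macrophages between the sides behaved, as a description. Lyve1 went from 263 ± 232 at 0 Hmox1 UMIs (mean ± SD over 3 libraries, CPM) through 556 ± 235 at 1 to 2, 799 ± 488 at 3 to 5 and 1243 ± 522 at 6 to 11 to 1106 ± 757 at 12 or more. Its mean was already higher at 1 to 2 Hmox1 UMIs than at 0, below the threshold of 6, with wide spread between libraries. Tfrc was 30.6 ± 13.7, 88.5 ± 76.4, 92.2 ± 50.3, 115 ± 13.7 and 118 ± 14.2 over the same 5 classes. Mt2 was 86.8 ± 69.2, 117 ± 119, 224 ± 126, 342 ± 356 and 529 ± 303, with its highest mean in the last class, and the spread between libraries was wide in every class. Hsph1 stayed between 642 and 785 up to 5 Hmox1 UMIs and was 1320.3 ± 697 and 1622 ± 721 beyond. Egr1 was 261, 225 and 224 in the 3 libraries at 3 to 5 and 993, 246 and 526 at 12 or more, where replicate 2 was little higher. The mean of Top2a went from 115 ± 90.7 to 8.03 ± 3.81 at 6 to 11 and 26.3 ± 21.5 at 12 or more, and Fth1 stayed level, from 7507 ± 1840.3 to 7669 ± 1943.

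**Figure D4:**
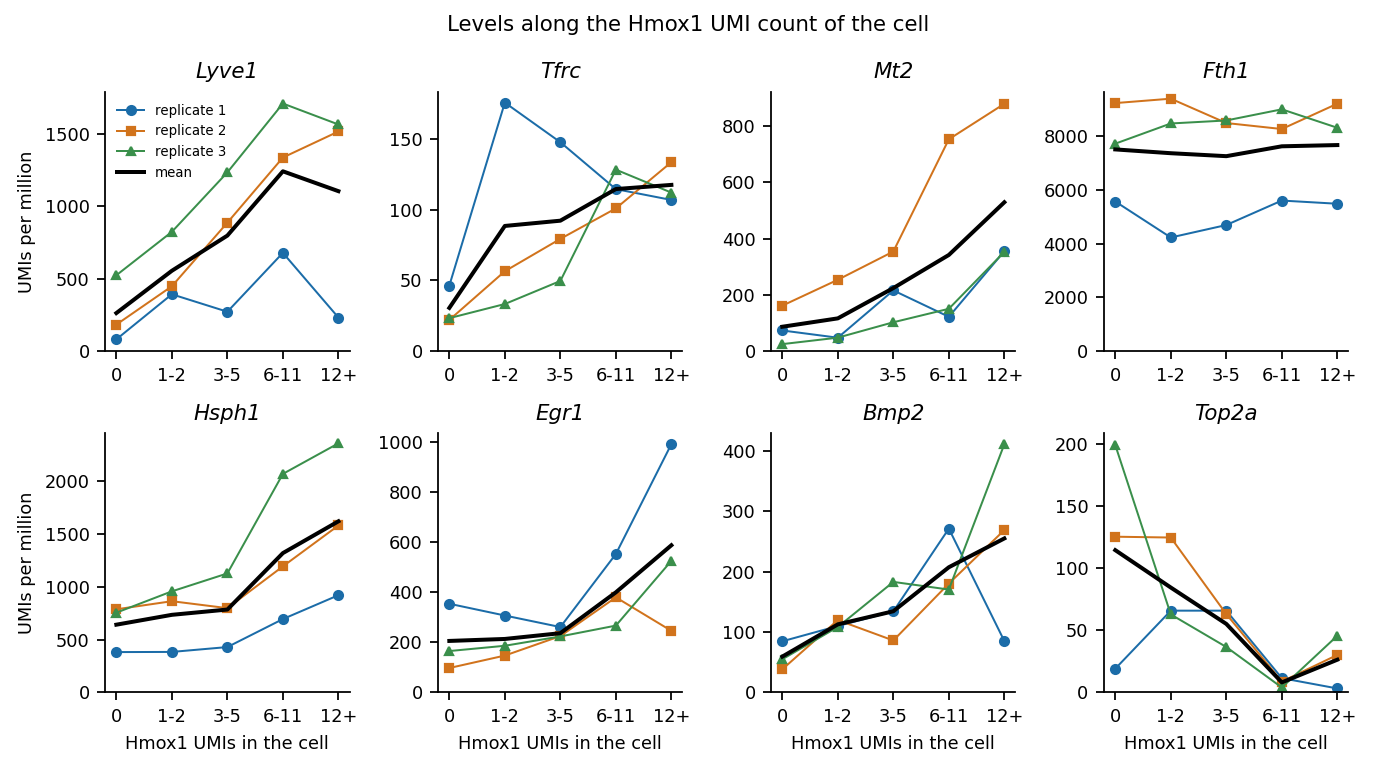
Levels of 8 genes in CPM (vertical axes, each from 0) in macrophages with 0, 1 to 2, 3 to 5, 6 to 11 and 12 or more Hmox1 UMIs (horizontal axes). Thin lines are the 3 libraries and the black line their mean; the means of Lyve1 and Bmp2 climb from the first class, those of Hsph1 and Egr1 mainly above 5 Hmox1 UMIs, and that of Fth1 stays level.

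Markers checked the identity of the cells. The 10 macrophage markers, among them Csf1r and Cd68, summed to 6836, 8119 and 7036 CPM on the high side and 5869, 7513 and 6130 on the negative side, against 135 to 297 in the lymphoid gate. The 8 T or NK markers summed to at most 8.09 CPM on either side, with Cd3e, Nkg7 and Gzma at 0 in all 6 sums, and the 6 erythroid markers to at most 6.29, with Alas2 at 0. The 8 ILC2 markers were lower on the high side in each library (75.2 to 128 against 161 to 191) and stood at 3998 to 6429 in the lymphoid gate. The 6 fibroblast markers stood at 253 in replicate 2 of the high side and at 12.1 to 51.8 in the 5 other sums; Dcn, decorin, gave 171 of the 253. Of cells with at least 3 UMIs of markers of another class there were 254 of 485 on the high side and 116 of 253 on the negative side; some of these markers are also expressed by macrophages, and without these cells 72 genes were called. The part of fibroblast and ILC2 RNA in the results was not tested. Doublet scoring marked 14 of the 485 and 10 of the 253 cells, and 241 genes were called without them.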

How the data were processed

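Single-cell RNA libraries of CD45+ cells were prepared with the 10x 3' chemistry and processed by the authors with Cell Ranger 3.1 on mm10, per the submitters' processing notes; the file headers carry software version 3.0.0 in replicate 1 and 3.1.0 in the others. The deposited values are raw UMI counts per gene and barcode, 6777422, 13336484 and 11017170 in replicates 1, 2 and 3. For the annotation release and the selection of barcodes before deposit, the sources used here name nothing. The labels give the replicate numbers, which mark the libraries, so both sides of each library share it and the library was a block in every fit.

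From these counts, UMIs were summed per library and side (580000.0, 2473969 and 1968238 on the high side, 366647, 995747 and 1113089 on the negative side), filtered with filterByExpr, scaled with TMM and tested with edgeR 4.0.16 (quasi-likelihood test, Benjamini-Hochberg adjustment over all genes tested, called at an adjusted p under 0.05) in R 4.3.3. Fold changes are log2 of the high over the negative side. The SE of each was derived as its absolute value divided by the square root of the quasi-likelihood F statistic. Hmox1, C1qa, C1qb, C1qc and mitochondrial genes, which chose the cells, stayed in library sizes and were not tested, nor was Lyve1 within the strata. Levels are CPM (CPM). Lyve1 strata needed 10 cells per library and side. Shares used Clopper-Pearson 95% intervals and exact sign-flip tests over libraries. Doublets were scored with scrublet in scanpy 1.11.5 and kept, with their removal as an alternative. A run on simulated counts checked that the code worked, and it gives no error rate for the calls reported here. Alternatives were DESeq2 1.42.0, other scaling, filters, depths and thresholds, and leaving out each library.

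The members and gene lists were chosen with earlier results of these data known. Named genes outside the lists were the 12 largest changes in each direction among called genes with 50 CPM or more on 1 side. They also had the same sign in every library and in each stratum where they were tested. List members were named for their size or role, after their values were seen. Positions are those of GENCODE on GRCm38. Intervals cover counting error only. Some genes of the lists are not reported here.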

Additional observations from a re-analysis of the deposited data

How the results depend on the processing

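The number of genes called moved with most settings, while of 2147 log2 fold changes of named genes over all cells under an alternative, 1644 kept their direction and side of the threshold, 374 were no longer called, 95 became called and 34, all of genes not called to begin with, changed sign. Over all cells, 234 genes were called, and the alternatives gave 113 with DESeq2, 811 without the low-count filter, 10 with no replicate block, 676 with sides set at equal depth, 109 with 12 or more Hmox1 UMIs, 128 with 3 or more against 0 or 1, 71 at no more than 5% mitochondrial UMIs, 72 without cells with markers of other classes and 61 with Lyve1 status in the block. In Lyve1-positive cells 262 became 46 with DESeq2, 496 without the filter, 0 with no replicate block (860 at an unadjusted p under 0.05 by edgeR), 152 in thinned cells, 69 in cells of 5000 to 20000 UMIs, 87 at equal depth, 103 and 30 with the stricter and looser Hmox1 thresholds, 155 at C1q of 30 or more, 47 at the mitochondrial limit and 60 without marker cells. The alternatives added after seeing the data gave 52 with a minimum of 5 cells, 0 with 5 or more Lyve1 UMIs and 0 without cycling cells. Replicate 1 also entered at equal depth, with the looser Hmox1 threshold and with a minimum of 5 cells. In Lyve1-negative cells 24 became 13 with DESeq2, 164 without the filter, 0 with no replicate block (255 unadjusted), 3 thinned, 14 in the depth window, 6 and 1 with the Hmox1 thresholds, 6 at C1q of 30, 15 at the mitochondrial limit, 45 without marker cells, 13 without doublet-scored cells and, added later, 10 without cycling cells. Without marker cells replicate 1 dropped out of the Lyve1-negative fit, as its high side held 9 cells, and replicates 2 and 3 remained. The difference between strata, 0, became 111 without the filter and, added later, 1 with 5 or more Lyve1 UMIs. Leaving out 1 library gave 43 to 781 genes over all cells, 0 to 97 in Lyve1-negative cells and 0 to 66 for the difference; in Lyve1-positive cells only replicate 1 could be left out, which it already was, since 1 library would remain. For the difference, the fits without replicate 2 or 3 had Lyve1-positive cells from 1 library only. The upper end of its range came from the fit without replicate 3, so it cannot decide whether the step differed between strata. The Lyve1 share differed by 29.6 to 40.3 percentage points. The replicate block is the library itself. The cause of these movements was not tested. Depth limits low genes: the smallest sum, of replicate 1 on the negative side, held 366647 UMIs.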

Other observations

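Genes of other macrophage functions follow. Of 18 tested receptors and bridging molecules of dead cell uptake, 4 rose (Cd209b, Gas6, Timd4 and Colec12) and 1 fell (Tgm2). Over all genes tested 2.24% rose and 0.771% fell. By edgeR 13 of the 18 had an unadjusted p under 0.05. Colec12, a scavenger receptor with a collagen stem, was 29.3, 65.9 and 72.1 CPM in replicates 1, 2 and 3 of the high side and 10.9, 8.03 and 20.7 on the negative side (2.21 ± 0.30, adjusted p = 0.00314, edgeR), without overlap. Tgm2, transglutaminase 2, was 8.62, 10.9 and 7.62 against 19.1, 35.1 and 17.1 (-1.4 ± 0.32, adjusted p = 0.0418), also without overlap. Ctsl, the protease cathepsin L, was 267, 275 and 307 against 161, 103 and 188 (0.99 ± 0.18, adjusted p = 0.017), and its sides did not overlap. Calls ended without replicate 2 for Colec12 (1.75), Tgm2 (-1.12) and Ctsl (0.75) and without replicate 3 for Tgm2 (-1.57) and Ctsl (1.09).

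Of 15 genes of monocyte-derived macrophages 2 fell, Cd9, a tetraspanin, and Ms4a4c (-1.20 ± 0.26 and -1.78 ± 0.42), and none rose. Among all genes tested 0.771% fell and 2.24% rose. Cx3cr1, the fractalkine receptor, was 509, 57.8 and 161 against 491, 247 and 394 over all cells, level in replicate 1 and lower on the high side in replicates 2 and 3 (-1.08 ± 0.32, adjusted p = 0.104). In Lyve1-positive cells of those 2 libraries it fell by 1.98 ± 0.25 on the log2 scale. Of 17 interferon-stimulated genes 1 rose, Oasl1, at 50.0, 335 and 247 against 62.7, 87.4 and 49.4 (1.67 ± 0.36, adjusted p = 0.0345), higher in 2 of 3 libraries. For a list of this size 1 call is near the overall share. Of 20 genes of glycolysis and hypoxia edgeR called none (4 at an unadjusted p under 0.05) and DESeq2 none, with a median of -0.28. In Lyve1-negative cells Il1rn, the interleukin 1 receptor antagonist, rose, at 174, 218 and 256 against 33.7, 118 and 39.8 (1.86 ± 0.31, adjusted p = 0.0145), with every high library above every negative one. Calls ended without replicate 2 for Cd9 (-0.77), Ms4a4c (-0.93) and Oasl1 (1.42) and without replicate 3 for Cd9 (-1.36), Ms4a4c (-2.29) and Oasl1 (1.20).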
